A study of Homo sapiens with 42 samples.

Results

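The 10 genes described here encode the TGF-beta receptors TGFBR1 and TGFBR2, the signal-carrying SMAD2, SMAD3 and SMAD4, the inhibitory SMAD6 and SMAD7, the ubiquitin ligase SMURF1 and the corepressors SKI and SKIL. Their peaks were taken from 7 deposited lists of m6A (N6-methyladenosine, a methylated adenosine within RNA) peaks by the Ensembl gene identifier that each list gives a peak. Of 211410 peaks in 17005 genes over the 7 lists, 227 peaks belonged to these 10 genes. The genes were chosen by name.

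The lists came from m6A-seq, in which fragmented mRNA is pulled down with an anti-m6A antibody and sequenced beside unselected RNA, called input. All cells were HepG2, a human hepatocellular carcinoma line, and all carried a lentiviral short hairpin RNA (shRNA) under puromycin selection, the controls included. The conditions were shMETTL3, shMETTL14, shWTAP and shSETD2#1 with the non-specific shCtrl, and shSETD2#2 with a shCtrl of its own, called the second control here. METTL3 carries the catalytic site of the m6A writer complex, METTL14 pairs with it, WTAP is an adaptor, and SETD2 methylates histone H3. Per condition there were 3 input and 3 immunoprecipitated (IP) libraries, which the authors joined into a single peak list, so no value below has a replicate error and no test between conditions was possible. The labels do not say whether the replicates were separate cultures. Read depth is unknown. Transcript levels, those of the targeted genes included, were not analysed here. The 5 conditions with the first control are called the first set and the other 2 the second set.

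TGF-beta binds TGFBR2, a serine/threonine kinase that activates TGFBR1, and TGFBR1 then phosphorylates SMAD2 and SMAD3, which join SMAD4 and enter the nucleus. SMAD6, SMAD7, SMURF1, SKI and SKIL restrain the signal, and SMAD7 and SKIL are themselves switched on by it, which closes a feedback loop. SMAD2 and SMAD3 have been reported to bind the METTL3, METTL14 and WTAP complex. In liver cells the pathway is known for growth arrest and, in tumours, for loss of epithelial character.

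All 10 genes had a peak in the control list, and 9 had a peak in each of the 7 lists. TGFBR1 was the exception, with a peak in the control list only. Among all genes with a control peak, 66.9% had a peak in every list. The 10 genes held 33 peaks in the METTL3 list, 31 in METTL14, 30 in WTAP, 32 in SETD2 #1 and 36 in the control, and 32 in SETD2 #2, against 33 in the second control. The whole lists held 30352, 28841, 29392 and 28645 peaks in METTL3, METTL14, WTAP and SETD2 #1 and 33672 in the control, and 29259 in SETD2 #2, against 31249 in the second control, so the lists of all knockdowns were shorter as well. At least 3 control peaks were called in 7 of the 10 genes (70.0%), against 33.0% of all genes with a control peak. The exact 95% interval, for counting error only, was 34.8 to 93.3% and did not hold the 33.0%. Transcript length was not analysed here. The medians over the 36 control peaks of these genes were a width of 301 bases, a log10 p of -38.1 and 5.67-fold enrichment, and over the whole control list 269 bases, -11.8 and 6.79-fold. Fold enrichment (IP over input) and p are the authors' values for each peak within its own list. Values of different lists are set side by side below as a description, and a higher value in one of them does not show a change in methylation.

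To follow a site across lists, peaks of a gene that shared at least 1 base in any list were joined into a region, numbered from the 5' end of the gene. This gave 45 regions. Of these, 15 had a peak in all 7 lists, 22 in 2 to 6 lists and 8 in a single list. Of all 44552 regions, 33.3% had a peak in all 7 lists and 21.3% in a single list. Of the 35 regions with a control peak, 15 (42.9%) were found in all 7 lists, near the 46.7% among all regions with a control peak. The 15 regions belonged to 6 genes, with 4 in SMAD3, 4 in SKI, 2 each in TGFBR2, SMAD6 and SMAD7 and 1 in SMAD2. No region of TGFBR1, SMAD4, SMURF1 or SKIL was found in every list. Positions below are in hg19, the build in the submitters' processing notes, and parts of transcripts (coding sequence, untranslated regions) were not analysed here.

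**Figure D1:**
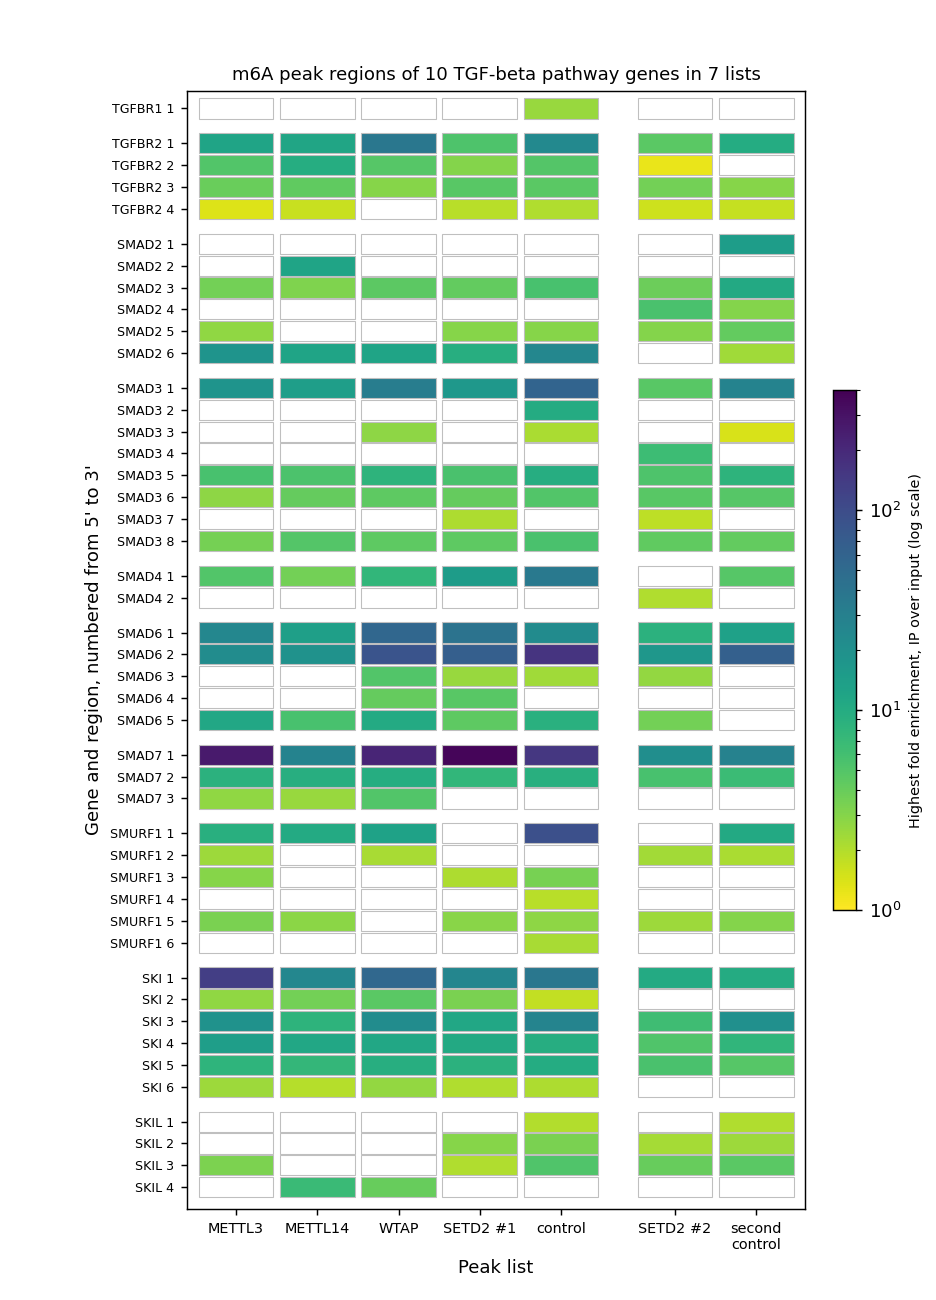
Each row is a region of a gene, numbered from the 5' end, and each column a peak list, with SETD2 #2 and the second control set apart. Colour gives the highest fold enrichment of IP over input among the region's peaks in that list on a log scale, and white means that no peak was called. The 15 regions filled across all 7 columns lie in TGFBR2, SMAD2, SMAD3, SMAD6, SMAD7 and SKI, and SMAD7 region 1 reached 365-fold in the SETD2 #1 list.

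Among the receptors, TGFBR2 carried 4 regions and TGFBR1 1. TGFBR1 (ENSG00000106799), the type I receptor kinase, had 210 bases called on chromosome 9 from 101911633 to 101911842 (plus strand) in the control list, at 2.55-fold and a log10 p of -6.23. In that list 66.1% of peaks had a p as good or better. None of the other 6 lists had a TGFBR1 peak, the second control included. TGFBR1 was thus the 1 of 10 genes left without a peak in each of these comparisons with the control. Among all genes with a control peak, 12.9% had none in METTL3, 18.0% in METTL14, 16.6% in WTAP, 15.1% in SETD2 #1 and 13.4% in the second control. Of the 9 genes with a second control peak, none lacked one in SETD2 #2 (all genes 10.5%).

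TGFBR2 (ENSG00000163513) is the receptor that binds the ligand. Its first region, on chromosome 3 from 30647994 to 30648353 (plus strand), was called in all lists with the same 5' edge. Its fold enrichment was 12.2 in METTL3, 11.8 in METTL14, 37.5 in WTAP, 5.27 in SETD2 #1 and 24.0 in the control, and 4.67 in SETD2 #2, against 10.1 in the second control. The WTAP value was above that of its control and the other 4 knockdown values were below. Further on, region 2 spanned spliced blocks from 30686317 to 30713178. Its fold enrichment was 5.08 in METTL3, 9.70 in METTL14, 4.91 in WTAP, 3.05 in SETD2 #1 and 4.93 in the control. The log10 p reached -637 in METTL14, against -478 in the control. SETD2 #2 had 61 bases at 1.21-fold there, and the second control had no peak. A gap in the second control alone occurred in 1.05% of all regions. Region 3 (30713297 to 30715623) was called in every list with a log10 p between -572 in SETD2 #1 and -192 in WTAP. Its fold enrichment was 3.89 in METTL3, 4.30 in METTL14, 3.00 in WTAP, 4.71 in SETD2 #1 and 4.64 in the control, and 3.55 in SETD2 #2, against 2.98 in the second control. The 3'-most region 4 (30730000 to 30733297) was weakly enriched, at 1.25-fold to 1.90-fold in METTL3, METTL14 and SETD2 #1, against 2.06-fold in the control, and 1.57-fold in SETD2 #2, against 1.71-fold in the second control. WTAP had no peak there. A gap in the WTAP list alone occurred in 1.24% of all regions.

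SMAD2 and SMAD3 carry the signal from the receptor. SMAD3 (ENSG00000166949) had 8 regions, 4 of them in every list. Region 1, on chromosome 15 from 67356191 to 67390945 (plus strand, in spliced blocks), was 2 peaks in every knockdown list and in the second control. In the control it was a single 660-base peak at 58.7-fold, within the top 2.84% of that list. The 5' piece had 17.8-fold enrichment in METTL3, 14.3-fold in METTL14, 24.8-fold in WTAP, and SETD2 #1 had 16.5-fold. In SETD2 #2 it had 4.79-fold, against 27.7-fold in the second control, which was within the top 2.46% of the second control list. The 3' piece had 11.2-fold enrichment in METTL3, 9.21-fold in METTL14, 32.5-fold in WTAP, and SETD2 #1 had 3.97-fold. In SETD2 #2 it had 2.72-fold, against 5.48-fold in the second control. WTAP was the list in which the 3' piece had the higher value.

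Towards the 3' end of SMAD3, region 5 (67479834 to 67483636) was wide in every list, with 750 to 870 bases. Its fold enrichment was 5.77 in METTL3, 5.44 in METTL14, 8.37 in WTAP, 5.58 in SETD2 #1 and 9.56 in the control, and 5.33 in SETD2 #2, against 8.36 in the second control. Each knockdown value lay below that of its control. Region 6 (67484566 to 67484835) had 2.76-fold enrichment in METTL3, 4.11-fold in METTL14, 4.39-fold in WTAP, 4.16-fold in SETD2 #1 and 5.12-fold in the control, and 4.71-fold in SETD2 #2, against 4.81-fold in the second control. Region 8 (67486964 to 67487383) had 3.46-fold in METTL3, 4.95-fold in METTL14, 4.42-fold in WTAP, 4.47-fold in SETD2 #1 and 5.59-fold in the control, and 4.35-fold in SETD2 #2, against 4.23-fold in the second control. METTL3 had the lowest value in both. Between them, region 7 (67486304 to 67486454) had a 121-base peak in SETD2 #1 (2.09-fold, log10 p -4.13) and in SETD2 #2 (1.80-fold, log10 p -4.70) and in no other list. Of all regions, 0.137% had a peak in both SETD2 lists and in no other. The SMAD3 peaks of regions 2, 3 and 4 were weak, with a log10 p from -5.42 to -2.69. Region 2 was called in the control alone and region 4 in SETD2 #2 alone, as were 5.23% and 4.10% of all regions. Region 3 was called in WTAP and the 2 controls (0.222% of all regions).

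SMAD2 (ENSG00000175387) had 6 regions, of which 1 was in all lists. That region, numbered 3, on chromosome 18 from 45422051 to 45423176 (minus strand), had 3.57-fold enrichment in METTL3, 3.16-fold in METTL14, 4.49-fold in WTAP, 4.20-fold in SETD2 #1 and 5.74-fold in the control, and 3.82-fold in SETD2 #2, against 10.7-fold in the second control. Each knockdown value lay below that of its own control. Region 5 (45368036 to 45371356) was missing from the METTL14 and WTAP lists, while METTL3 had a 211-base peak with 2.73-fold enrichment and SETD2 #1 a 181-base peak with 2.95-fold, against 271 bases and 2.98-fold in the control. SETD2 #2 had 3.06-fold there, against 4.23-fold in the second control. This control peak was well supported, with a log10 p of -27.1. Across all regions, 1.85% lacked a peak in METTL14 and WTAP and had one in the other 5 lists, and the 10 genes held 2 of these, in SMAD2 and SKIL.

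The 3'-most SMAD2 region 6 (45353855 to 45354605) was 601 to 751 bases wide with 9.44-fold to 17.8-fold enrichment in METTL3, METTL14, WTAP and SETD2 #1 and 25.1-fold in the control. SETD2 #2 had no peak there, against a 151-base peak with 2.36-fold in the second control. That second control peak was weak, with a log10 p of -3.79, a value that 82.2% of its list matched or bettered. SMAD2 regions 1 and 2 were each called in 1 list (second control and METTL14), with a log10 p of -3.87 and -3.20, as were 3.56% and 2.24% of all regions. Region 4 was called in SETD2 #2 (5.62-fold) and the second control (3.05-fold) alone, like 4.37% of all regions.

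SMAD4 (ENSG00000141646), the partner shared by the receptor-activated SMADs, had a single peak in each list. In 6 lists it lay in region 1 on chromosome 18 from 48556576 to 48556936 (plus strand). Its fold enrichment was 5.07 in METTL3, 3.54 in METTL14, 7.72 in WTAP, 14.9 in SETD2 #1 and 35.6 in the control. Its width was 241, 151, 241 and 241 bases in the same knockdown lists, against 361 bases in the control. In METTL14 it came near the limit of calling, with a log10 p of -2.68, a value that 94.9% of that list matched or bettered. SETD2 #2 had no peak at this place, against 4.90-fold enrichment at a log10 p of -23.5 in the second control. SETD2 #2 instead had a 151-base peak from 48573408 to 48573558 with 2.04-fold enrichment, which overlapped a peak of another gene on the same strand, so its assignment to SMAD4 is uncertain. A gap in SETD2 #2 alone occurred in 3.02% of all regions, SMAD2 region 6 among them.

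In each list the highest fold enrichment among the 10 genes belonged to SMAD6 or SMAD7, the inhibitory SMADs. SMAD7 (ENSG00000101665), which blocks the type I receptor and recruits SMURF ligases to it, had its strongest peak in the 5'-most region, on chromosome 18 from 46476367 to 46477021 (minus strand). Fold enrichment there was 263 in METTL3, 27.7 in METTL14, 215 in WTAP, 365 in SETD2 #1 and 154 in the control, and 21.2 in SETD2 #2, against 28.3 in the second control. Its log10 p was -128, -98.4, -396 and -384 in METTL3, METTL14, WTAP and SETD2 #1, against -339 in the control. METTL14 had the lowest value of the first set by both measures, while METTL3, WTAP and SETD2 #1 had a higher fold enrichment than the control. The share of peaks in the same list with a fold enrichment as high was 0.0659% in METTL3, 8.18% in METTL14, 0.228% in WTAP, 0.00349% in SETD2 #1 and 0.443% in the control. It was 0.895% in SETD2 #2, against 2.40% in the second control, so the peak with the lower fold enrichment ranked higher within its list. Input counts were not analysed here.

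SMAD7 region 2 (46447682 to 46448277) had 8.80-fold enrichment in METTL3, 9.27-fold in METTL14, 9.74-fold in WTAP, 7.77-fold in SETD2 #1 and 9.16-fold in the control, and 5.72-fold in SETD2 #2, against 6.69-fold in the second control. Region 3, downstream of it from 46447086 to 46447295, had a peak in METTL3, METTL14 and WTAP and in none of the other 4 lists. The peak was 2.71-fold enriched at a log10 p of -5.99 in METTL3. The METTL14 peak had 2.51-fold at -7.00 and the WTAP peak 5.13-fold at -31.2. All 3 were also in the shorter deposited lists, which held the peaks at 2-fold or more whose p did not exceed 1e-05. Of all regions, 1.06% showed this combination of lists.

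SMAD6 (ENSG00000137834), which chiefly restrains the bone morphogenetic protein branch, had 5 regions. Region 1, on chromosome 15 from 66994566 to 66994895 (plus strand), was 270 to 330 bases wide in every list with the same 5' edge. Its fold enrichment was 25.2 in METTL3, 14.0 in METTL14, 55.4 in WTAP, 40.9 in SETD2 #1 and 22.5 in the control, and 8.75 in SETD2 #2, against 13.3 in the second control. METTL3, WTAP and SETD2 #1 had values above the control and METTL14 below it.

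SMAD6 region 2 (66995015 to 66996632) had 2 peaks each in METTL3, METTL14, SETD2 #2 and the second control, and 1 in the other 3 lists. Those of METTL3 had 19.3-fold and 22.3-fold enrichment at log10 p values of -6.77 and -6.62, and those of METTL14 19.5-fold and 13.4-fold with -6.11 and -6.88. In WTAP and SETD2 #1 it was a 1259-base peak, with 84.4-fold and 66.9-fold enrichment at log10 p values of -33.5 and -23.8. The control had the widest of the 227 peaks here, 1498 bases at 162-fold and a log10 p of -48.9. In SETD2 #2 the main peak had 839 bases with 16.9-fold enrichment, against 869 bases with 64.5-fold in the second control. In all 5 knockdown lists the peaks here were narrower, and lower in fold enrichment, than the main peak of their own control. The 3 remaining SMAD6 regions were weaker, with a log10 p from -9.36 to -2.98. Region 5 had no peak in the second control and 3.61-fold to 11.2-fold enrichment in the other 6 lists, as in 1.05% of all regions. Region 3 had its highest value, 5.06-fold, in WTAP, and its combination of 4 lists was found in 0.0449% of all regions. Region 4 was called in WTAP and SETD2 #1 alone (0.207% of all regions).

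**Figure D2:**
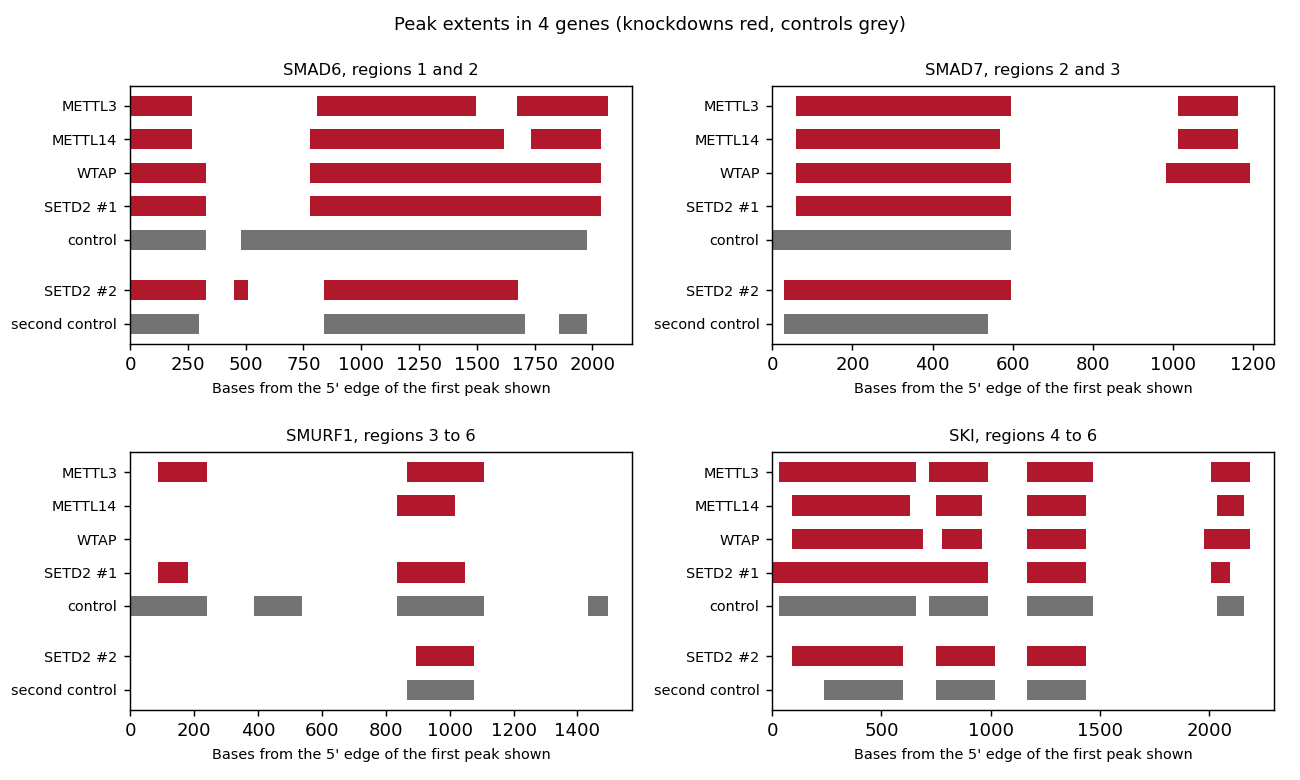
Bars give the extent of each called peak along the genome in bases from the 5' edge of the first peak shown, with 1 row per list, knockdowns in red and controls in grey. In SMAD6 region 2, METTL3, METTL14, SETD2 #2 and the second control have 2 peaks each where the control has 1 of 1498 bases. SMAD7 region 3 is called in METTL3, METTL14 and WTAP. In SMURF1 regions 3 to 6 WTAP has no peak and the second control 1, against 4 in the control. The control peaks of SMURF1 regions 4 and 6 are weak, with a log10 p of -4.81 and -4.07. In SKI, region 5 has 270 or 300 bases in every list.

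SMURF1 (ENSG00000198742), a ubiquitin ligase that marks SMADs and receptors for destruction, had 6 regions and none in every list. Its 5'-most region, on chromosome 7 from 98741364 to 98741693 (minus strand), had 9.13-fold enrichment in METTL3, 10.4-fold in METTL14 and 12.7-fold in WTAP, and SETD2 #1 had no peak there. The log10 p was -2.35 in METTL3, -2.64 in METTL14 and -3.54 in WTAP, values that 98.7%, 96.1% and 86.4% of the peaks in their lists matched or bettered. The control peak had 92.6-fold enrichment with a log10 p of -27.3. SETD2 #2 had no peak, against 10.7-fold with -5.73 in the second control. Absence from both SETD2 lists, with a peak in the other 5, occurred in 0.620% of all regions.

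Near its 3' end SMURF1 had 4 control peaks within a stretch from 98625778 to 98627272, in regions 3 to 6. METTL3 had a peak in 2 of these regions, METTL14 in 1, WTAP in none and SETD2 #1 in 2, and SETD2 #2 and the second control had 1 each. Region 5 (98626167 to 98626436) had 3.34-fold enrichment in METTL3, 2.83-fold in METTL14 and 2.93-fold in SETD2 #1, against 2.80-fold in the control, and 2.42-fold in SETD2 #2, against 3.04-fold in the second control. Region 3 (98627033 to 98627272) had 2.96-fold in METTL3 and 2.07-fold in SETD2 #1, against 3.45-fold with a log10 p of -17.0 in the control, and no peak in the other 4 lists (0.536% of all regions). Regions 4 and 6 were called in the control only, as were 5.23% of all regions. They had 1.90-fold and 2.18-fold enrichment with a log10 p of -4.81 and -4.07. Region 5 lacked a peak in WTAP alone, as did 1.24% of all regions. Region 2 (98643359 to 98645480) overlapped a peak on the opposite strand in each of the 4 lists that had it, METTL3, WTAP, SETD2 #2 and the second control (0.0269% of all regions).

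The corepressors SKI and SKIL bind SMADs and silence their targets. SKI (ENSG00000157933) held 6 regions, with 7 peaks in METTL3, 8 in METTL14, 7 in WTAP, 7 in SETD2 #1 and 7 in the control, and 6 in SETD2 #2, against 7 in the second control. In every list but SETD2 #2, where SMAD3 had 7, these were the most peaks of any of the 10 genes. Its 5'-most region, on chromosome 1 from 2160134 to 2163985 (plus strand, 2 blocks), had 135-fold enrichment in METTL3, 25.1-fold in METTL14, 53.5-fold in WTAP, 25.6-fold in SETD2 #1 and 36.9-fold in the control. In SETD2 #2 and the second control it was 2 peaks. The 5' piece had 10.6-fold enrichment in SETD2 #2, against 6.87-fold in the second control. The 3' piece had 7.29-fold, against 10.2-fold. The best log10 p in this region lay between -207 in METTL3 and -128 in SETD2 #2.

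SKI region 3 (2235212 to 2238234) was a single peak of 1019 bases in METTL3 and 1049 bases in WTAP, against 1019 bases in the control, and METTL14, SETD2 #1 and the second control had 2 peaks each there. Its highest fold enrichment was 19.1 in METTL3, 8.39 in METTL14, 22.2 in WTAP, 11.3 in SETD2 #1 and 26.7 in the control, and 6.43 in SETD2 #2, against 20.1 in the second control. Each knockdown value lay below that of its control. By best log10 p, METTL3 (-236), WTAP (-274) and SETD2 #1 (-227) were better than the control (-143). METTL14 (-87.8) was not, nor was SETD2 #2 (-42.0), against -84.8 in the second control. The highest value in region 4 (2238444 to 2239462) was 14.1-fold in METTL3, 11.2-fold in METTL14, 11.2-fold in WTAP, 10.8-fold in SETD2 #1 and 9.65-fold in the control, and 5.23-fold in SETD2 #2, against 7.91-fold in the second control. These highest values of the first-set knockdowns lay above the control. The 3' peak of the region went the other way, with 3.74-fold in METTL3, 4.02-fold in METTL14 and 2.68-fold in WTAP, against 6.45-fold in the control. That 3' peak had 5.23-fold in SETD2 #2, against 5.16-fold in the second control, and the 5' peak 5.13-fold, against 7.91-fold. SETD2 #1 had a single 989-base peak across the region. Region 5 (2239612 to 2239911) had 270 or 300 bases in all lists. It had 8.15-fold enrichment in METTL3, 7.63-fold in METTL14, 9.31-fold in WTAP, 8.73-fold in SETD2 #1 and 10.0-fold in the control, and 5.64-fold in SETD2 #2, against 4.82-fold in the second control. SKI regions 2 and 6 had a peak in each of the 5 lists of the first set and in neither list of the second, a split found in 3.47% of all regions. In region 2 the 4 knockdowns had 2.69-fold to 4.64-fold enrichment with a log10 p from -24.3 to -15.8, against 1.75-fold with -2.90 in the control.

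SKIL (ENSG00000136603), also called SnoN, had 4 regions and none in every list. Region 3, on chromosome 3 from 170108867 to 170110284 (plus strand, 2 blocks), had 3.23-fold enrichment in METTL3 and 2.04-fold in SETD2 #1, against 5.23-fold in the control, and 4.04-fold in SETD2 #2, against 4.62-fold in the second control. METTL14 and WTAP had no peak there. Region 2 (170078412 to 170078771) had no peak in METTL3, METTL14 or WTAP, and 3.00-fold enrichment in SETD2 #1, against 3.34-fold in the control, and 2.22-fold in SETD2 #2, against 2.39-fold in the second control. Region 1, just upstream, had a peak in the 2 controls and in no knockdown, at 2.01-fold (log10 p -3.7) and 2.06-fold (-4.22). In region 2 the log10 p was -5.19 in SETD2 #1 and -10.2 in the control, and -3.87 in SETD2 #2, against -6.42 in the second control. All these peaks of regions 1 and 2 had a p worse than the median of their list. Of all regions, 1.14% lacked a peak in METTL3, METTL14 and WTAP alone, and 1.20% had a peak in the 2 controls alone. The METTL14 and WTAP lists had a single SKIL peak each, and it lay in region 4 at identical coordinates, from 170111900 to 170112049. There it had 6.92-fold enrichment with a log10 p of -4.33 in METTL14 and 4.02-fold with -5.01 in WTAP, and the other 5 lists had none. Of all regions, 1.37% had a peak in METTL14 and WTAP alone. SKIL peak bases summed to 270 in METTL3, 150 in METTL14, 150 in WTAP, 362 in SETD2 #1 and 871 in the control, and to 481 in SETD2 #2, against 662 in the second control. Over the 10 genes the sums were 11737, 10957, 12300 and 12187 in METTL3, METTL14, WTAP and SETD2 #1, against 14852 in the control. SETD2 #2 had 9846, against 10898 in the second control.

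Counted over the family without regard to p, control peaks were absent from a knockdown list about as often as other control peaks. A peak was called absent when no peak on the same strand of the other list shared a base with it. From METTL3, 8 of 36 control peaks were absent (22.2%, exact 95% interval 10.1 to 39.2%), against 22.8% of all control peaks. From METTL14 and from WTAP it was 11 of 36 (30.6%, 16.3 to 48.1%), against 29.8% and 28.8% of all. SETD2 #1 lacked 7 of 36 (19.4%, 8.19 to 36.0%), against 27.0%, and SETD2 #2 lacked 8 of 33 second control peaks (24.2%, 11.1 to 42.3%), against 20.5%. The second control itself lacked 10 of 36 control peaks (27.8%, 14.2 to 45.2%), against 28.6% of all. The intervals cover counting error only, and peaks of a gene are not independent. Each interval held the value over all peaks, so no excess or shortage was detectable in these shares with this number of peaks. The shares are not matched for p, and 25 of the 36 control peaks had a p at or better than the list median. Shares on each side of that median follow.

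Most of the absent peaks were weak, with a p worse than the median of their list. Of the 11 weak control peaks of these genes, METTL3 lacked 8 (all weak control peaks 43.3%), METTL14 8 (51.9%) and WTAP 6 (50.3%). SETD2 #1 lacked 6 of these 11 (50.9%) and the second control 8 (50%). SETD2 #2 lacked 6 of 10 weak second control peaks (38.4%). Each of these shares was above that of all weak peaks, but no intervals were computed for them. Of the 25 control peaks of these genes with a p at or better than that median, METTL3 lacked none (all such control peaks 2.42%), METTL14 3 (7.90%), WTAP 5 (7.41%) and SETD2 #1 1 (3.24%), and the second control lacked 2 (7.28%). The WTAP share, 20.0%, had an exact 95% interval of 6.83 to 40.7%, which holds the value over all such peaks. The 3 in METTL14 lay in SMAD2 region 5, SKIL region 3 and SMURF1 region 3. WTAP lacked the same 3 and also TGFBR2 region 4 and SMURF1 region 5, and SETD2 #1 lacked SMURF1 region 1. The peaks that the second control lacked lay in TGFBR2 region 2 and SMURF1 region 3. SETD2 #2 lacked 2 of 23 such second control peaks (2.66%), that of SMAD4 and the 5' piece of SKI region 3. METTL14 and WTAP were compared with the same control, so their shared absences are not independent.

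In the other direction, 2 of 33 peaks in METTL3 (6.06%), 3 of 31 in METTL14 (9.68%), 4 of 30 in WTAP (13.3%) and 2 of 32 in SETD2 #1 (6.25%) had no control peak. Over whole lists the shares were 10.6%, 12.7%, 13.5% and 8.07%. SETD2 #2 had 7 of 32 (21.9%, 9.28 to 40.0%) with no second control peak, against 14.5% of its whole list, and 3 of these 7 lay in SMAD6. The second control had 3 of 33 (9.09%) with no control peak, against 15.6%. A single gain had a p at or better than its list's median, that of SMAD7 region 3 in WTAP.

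**Figure D3:**
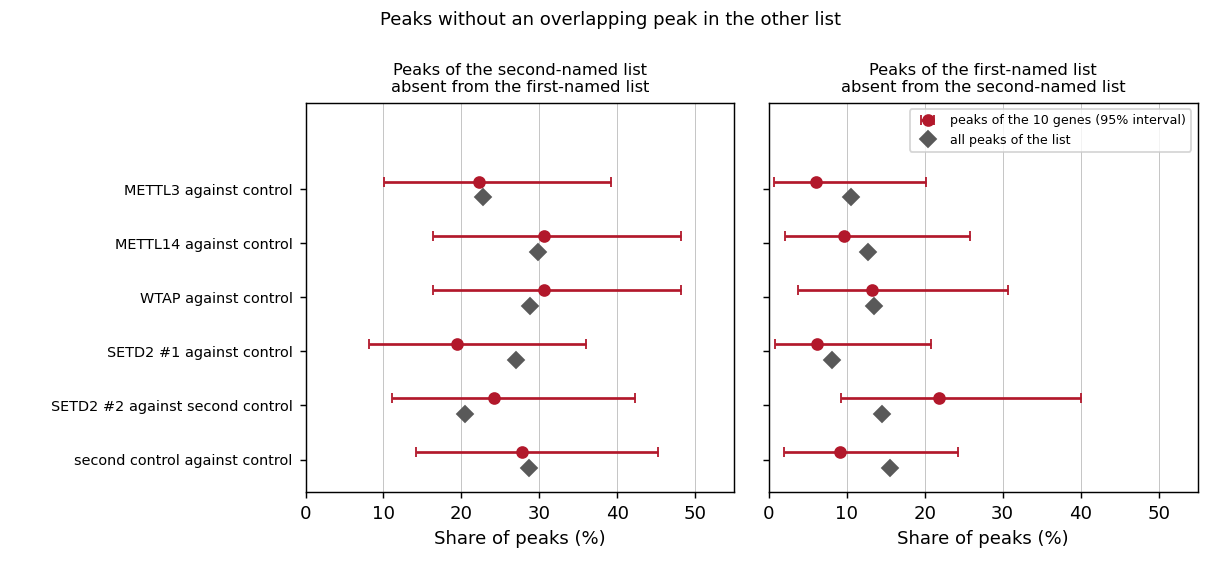
Points give the share of peaks in percent that had no overlapping peak in the other list, for the peaks of the 10 genes (red, with exact 95% intervals for counting error) and for all peaks of the list (grey), 1 row per comparison. All 12 grey values lie inside the red intervals.

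Where a control peak had a match, the match was mostly narrower in the first set of knockdowns, as it was in the second control. Among peaks matched 1 to 1, 16 of 25 were narrower in METTL3 (all matched peaks 56.7%), 17 of 22 in METTL14 (62.4%), 15 of 24 in WTAP (62.2%) and 21 of 25 in SETD2 #1 (64.9%). For SETD2 #2 it was 10 of 25 (44.1%). The second control against the control gave 16 of 22 (60.7%). The SETD2 #1 share, 84.0% (63.9 to 95.5%), was the highest of the 6, with an interval that holds the 64.9% of all matched peaks. The median difference in width was -60 bases in METTL3 and METTL14, -30 in WTAP, -59 in SETD2 #1 and -30 in the second control, against -30 over all matched peaks in each of these comparisons, and 0 in SETD2 #2, as over all its matched peaks. Peaks split in 2, such as those of SMAD3 region 1, are not counted in these pairs.

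The fold enrichment of the 2 outermost peaks was compared within each gene and list. In the control list, 6 of the 8 genes with 2 or more peaks had a higher fold enrichment in the 5'-most than in the 3'-most peak, close to the 65.1% of all such genes. SMAD7 had 154-fold at the 5' end and 9.16-fold at the 3' end, SMURF1 92.6-fold and 2.18-fold, and SKI 36.9-fold and 2.08-fold. SMAD2 and SKIL ran the other way, with 5.74-fold and 25.1-fold in SMAD2 and 2.01-fold and 5.23-fold in SKIL. In the other lists it was 6 of 7 genes in METTL3 (all genes 61.9%), METTL14 (61.3%) and WTAP (62.9%), 6 of 8 in SETD2 #1 (58.0%) and SETD2 #2 (61.6%), and 7 of 8 in the second control (69.5%). TGFBR2, SMAD3, SMAD6, SMAD7 and SKI had the higher value at the 5' end in each of the 7 lists, 5 of the 7 members with 2 or more peaks in every list, against 28.2% of all such genes. Of these genes, only SMAD3 had its 3'-most peak in the same region in every list. For SMAD7 it lay in region 3 in METTL3, METTL14 and WTAP and in region 2 elsewhere. For TGFBR2 it lay in region 3 in WTAP and in region 4 elsewhere. By p the 5'-most peak was the better of the pair in 7 of the 8 genes in the control, against 40.3% of all, and SMAD2, at a log10 p of -61.3 and -23.8, turned the other way from its fold enrichment. By the same measure it was 5 of 7 in METTL3 (40.3%), 4 of 7 in METTL14 (39.7%), 5 of 7 in WTAP (40.8%) and 6 of 8 in SETD2 #1 (40.6%), and 4 of 8 in SETD2 #2 (43.6%), against 5 of 8 in the second control (44.6%). The lists hold the same genes, so these counts are not independent of each other. Of the 8 genes' 5'-most control peaks, METTL3 lacked that of SKIL (1 of 8, all genes 24.3%), and so did METTL14 (29.5%) and WTAP (26.6%), while SETD2 #1 lacked those of SMURF1 and SKIL (29.9%) and the second control none (25.0%). SETD2 #2 lacked 3 of 8 second control ones, of SMAD2, SMURF1 and SKIL (26.3%). At the 3' end, METTL3 lacked 1 of 8 (19.8%), METTL14 2 (29.9%), WTAP 3 (29.6%), SETD2 #1 1 (22.5%) and the second control 3 (25.7%), and SETD2 #2 lacked 2 of 8 (14.0%). With 8 genes these shares are imprecise.

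**Figure D4:**
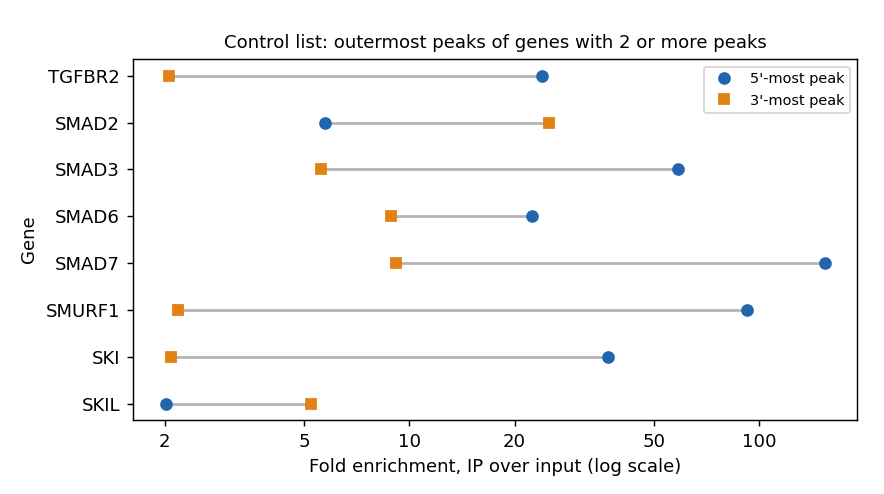
For each of the 8 genes with 2 or more control peaks, a circle gives the fold enrichment of IP over input of the 5'-most control peak and a square that of the 3'-most, on a log axis. The circle lies to the right of the square in 6 genes, and to the left in SMAD2 and SKIL.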

How the data were processed

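Input and IP libraries of HepG2 cells were made in 7 conditions, 42 samples in 14 groups of 3. FastQC 0.11.5, TopHat2 2.1.1 and hg19 stand in the submitters' processing notes. Peaks came from exomePeak, run by the authors on the 3 replicates joined, per the labels; its version, and the annotation, were not given in the sources used here. The deposited tables give for each peak a p-value of IP against input, log10 scores of p and of the false discovery rate (FDR), and a fold enrichment, a linear ratio. The shorter deposited lists matched the limits of p (1e-05) and fold (2) exactly. Depth is unknown.

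Repeated rows (same strand and blocks) were counted once, 11 to 21 per list. Overlaps were computed over peak blocks with bedtools 2.31.1, at least 1 shared base on the same strand. The overlap code was checked on a few hand-made peaks. It was also run on the control list with randomly chosen peaks removed, where the expected answer came partly from the same code. Intervals are Clopper-Pearson, from scipy 1.17.1, with numpy 2.4.6, pandas 2.3.3 and Python 3.11.15. The members and lists of genes were chosen with earlier results of these data known, and gene symbols were taken with them. All 10 genes are named and every region is counted, with values in each list for regions found in all 7 lists and for well supported control regions absent from 2 or more first-set knockdowns. Planned accounts of other pathway genes, of cell type markers of HepG2 and of sequence motifs were not analysed here, since the tables pair identifiers with no symbols and no hg19 genome was used.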

Additional observations from a re-analysis of the deposited data

How the results depend on the processing

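No paired analysis was possible because each list joins its replicates. Leaving out single replicates was likewise not possible. Of 103 recomputed values, 92 stayed within the counting interval of the value above, or within 1.5 times for counts. The number of regions in all 7 lists was 15 in the shorter lists, with an FDR of at most 1e-05 and with whole spans, and 13 with fold enrichment of at least 3, alternatives chosen after the data were examined. Restricting the counted control peaks to those with a p at or better than the median gave absent shares of 0% for METTL3 (all such peaks 2.42%), 12.0% for METTL14 (7.90%), 4.0% for SETD2 #1 (3.24%), 8.7% for SETD2 #2 (2.66%) and 8.0% for the second control against the control (7.28%), since weak peaks were left out. For METTL3 the count of 0 of 25 allows a share of up to 13.7% by the exact interval. The METTL14 share was 16.0% among peaks of at least 3-fold (all 30.6%). Asking for overlap of at least 50% of both peaks gave gains of 30.3% for METTL3 (all peaks 27.9%), 21.9% for SETD2 #1 (28.1%) and 33.3% for the second control (40.8%), because split or narrowed peaks then count as gained. The SETD2 #2 gains were 4.17% in the shorter lists (all 11.7%) and 4.35% with an FDR of at most 1e-05 (9.86%). Weak peaks depend on read depth, which is unknown here.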
